A study of Homo sapiens with 6 samples.

Results

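The genes described here are 10 feedback inhibitors and early targets of the kinase ERK: the phosphatase genes DUSP6, DUSP4 and DUSP5, the Sprouty genes SPRY1, SPRY2 and SPRY4, the Spred genes SPRED1 and SPRED2, and the ETS transcription factor genes ETV4 and ETV5. They are 10 of the 59653 gene symbols in the count table, and all 10 passed the filter on low counts. They were chosen by family as a readout of signalling from fibroblast growth factor (FGF) to ERK, and with the measured change of DUSP6 between control and SOX2 siRNA already known. Their differences in that comparison are therefore given as a description, with standard errors and without p-values, and nothing is supported with them.

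The cells were PA1, an established line from a human ovarian teratocarcinoma, labelled wildtype. The 3 libraries of the control group came from cells given a negative control siRNA, and the 3 libraries of the other group from cells given siRNA against SOX2, a transcription factor gene of pluripotent and neural progenitor cells. The labels name 2 SOX2 siRNAs without saying whether they were pooled or divided between replicates. Both groups were transfected as attached cultures, moved after 24 h to plates with a non-adherent coating, and their RNA was extracted after a further 72 h. The replicates are numbered 1 to 3, and nothing says whether they were separate cultures. The standard errors therefore rest only on the spread between these libraries, which may be technical. The fit also draws each gene's spread towards that of other genes, so a standard error is not a gene's own spread alone.

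ERK is the last kinase of a chain in which an FGF receptor activates RAS, RAS activates RAF, RAF activates MEK, and MEK phosphorylates ERK. Active ERK induces its own inhibitors: DUSP phosphatases remove phosphate from ERK, while Sprouty and Spred proteins act higher up, at the step from receptor to RAF. ETV4 and ETV5 belong to the PEA3 group of ETS factors, which carry FGF signals to target genes. In some pluripotent cells and in early embryos FGF-ERK signalling is known for its part in leaving the pluripotent state and in forming mesendoderm. Its part in PA1 cells was not tested.

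Total counts ranged from 25152313 to 32753184 per library, and levels are given as CPM, the count over the scaled library size as edgeR's cpm function gives it. SOX2 had 245, 265 and 256 CPM in the control replicates and 51.8, 54.9 and 50.6 CPM in the SOX2 siRNA replicates, each in the order 1 to 3, so the targeted gene matched the labels. Pearson correlations of log2 CPM across genes were 0.990 to 0.992 within groups and 0.982 to 0.985 between groups, and genes are not independent replicates. Of the 8 pluripotency markers, POU5F1, LIN28A, LIN28B, SALL4 and PODXL had 3649 counts or more in each library, DPPA4 and L1TD1 were at 1.64 to 3.05 CPM in the group means, and TDGF1 had at most 3 counts in each library. The markers' summed level was 2682 to 2740 CPM in control and 2643 to 2704 CPM in SOX2 siRNA libraries, with 3 markers called higher and PODXL lower.

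Of the 10 genes, 7 had an adjusted p under 0.05 in the test across all genes (edgeR's quasi-likelihood test, Benjamini-Hochberg), against 28.2% of the 17592 genes tested. The 6 that were higher compare with 14.8% of all tested genes, and the 1 that was lower with 13.4%. For 8 of the 10 genes no SOX2 siRNA library lay within the control range, against 41.8% of tested genes. The median log2 fold change was 0.46 over the 10 genes and -0.00085 over all tested genes. Since this comparison helped to choose the genes, nothing is read from these shares. The rank order was DUSP6, DUSP5, SPRY4, SPRY1, ETV5, SPRY2 and SPRED2 on the higher side, then ETV4, DUSP4 and SPRED1 at or below no change.

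**Figure D1:**
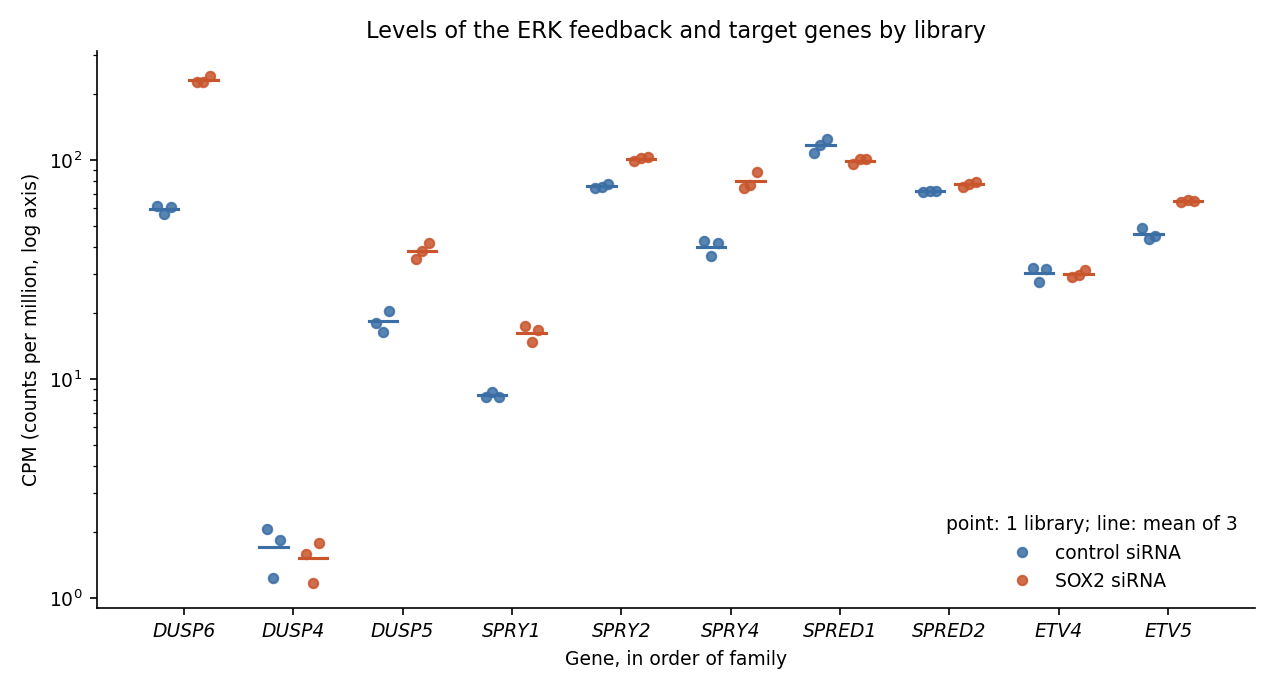
Level of each of the 10 genes in every library, in CPM on a log axis; points are libraries and lines are means of 3. The SOX2 siRNA libraries lie above the control libraries for DUSP6, DUSP5, SPRY1, SPRY2, SPRY4, SPRED2 and ETV5, below them for SPRED1, and among them for DUSP4 and ETV4.

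Windows of 300 bases around RefSeq transcription starts (250 before, 50 after; GRCh38.p14) were at hand for 6 of the 10 genes: DUSP6, SPRY1, SPRY2, SPRY4, SPRED1 and SPRED2. Both strands were searched for 5 motifs. The Capicua octamer was taken as TGAATGAA, TGAATGGA, TCAATGAA or TCAATGGA; Capicua is the repressor of PEA3 group and other ERK target genes that ERK inactivates. The others were the SOX hexamer AACAAT, the ETS heptamer CCGGAAG, the AP-1 heptamer TGANTCA and the cAMP response octamer TGACGTCA. DUSP6 held 2 Capicua octamers and 1 SOX hexamer. The stretches below are shown because DUSP6 differed most among the 10 genes and was the only one of the 6 with Capicua octamers in these windows. Capitals mark the matched letters, positions count from the RefSeq start, and the strand is minus.
DUSP6, bases -24 to -17, chr12:89352507-89352536: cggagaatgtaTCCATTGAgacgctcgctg
DUSP6, bases 2 to 9, chr12:89352482-89352511: cgctgtttgtaTCCATTGAggagctgcctc
DUSP6, bases -116 to -111, chr12:89352600-89352629: gacaaactcattAACAATtcatcaacacaa
In GENCODE 29 a longer first exon of DUSP6 covers this window, so the stretches lie in the annotated transcript of that model. Of 35116 windows of the same length, 3.77% held a Capicua octamer, 0.327% held 2 or more, and 10.1% held the SOX hexamer. The motifs were chosen after the sequences had been seen, so no share of windows given here measures chance. Any part of the matched letters in the difference of DUSP6 was not tested.

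The other windows shared little with that of DUSP6. SPRY1 held an ETS heptamer at bases -67 to -61 of its second RefSeq start (10.3% of all windows hold one). SPRED2 held a SOX hexamer at -131 to -126 and AP-1 heptamers at -6 to 1 and 35 to 41 of a start inside the gene (7.71% of windows hold an AP-1 heptamer). No cAMP response octamer was found in the windows of these genes (1.85% of all windows hold one). SPRY2, SPRY4 and SPRED1 held none of the letters searched. SPRY1's match and the 250 bases before the start of SPRY4 are shown as the windows of the Sprouty genes that differed most; capitals mark the ETS heptamer. A match is a description of letters, and the absence of a match says only that these letters are not in the window.
SPRY1, plus strand, chr4:123398308-123398337: gccctccgcagCCGGAAGggggccgcgggg
SPRY4, minus strand, chr5:142324248-142324497: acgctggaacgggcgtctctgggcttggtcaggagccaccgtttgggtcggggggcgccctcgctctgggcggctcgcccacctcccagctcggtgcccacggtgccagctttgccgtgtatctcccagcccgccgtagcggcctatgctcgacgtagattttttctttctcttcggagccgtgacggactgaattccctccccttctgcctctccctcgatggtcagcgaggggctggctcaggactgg

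DUSP6 encodes a cytoplasmic phosphatase that acts on ERK, and its transcript is a common readout of FGF-ERK activity. Its level was 61.8, 56.6 and 61.1 CPM in the control replicates and 227, 226 and 241 CPM in the SOX2 siRNA replicates, each in the order 1 to 3. Every SOX2 siRNA library was far above every control library, and the spread within a group was small beside the gap. The means were 59.8 ± 2.85 and 231 ± 8.64 CPM (SD, n = 3), a 3.86-fold difference (log2 fold change 1.95, SE 0.0438). By absolute log2 fold change DUSP6 ranked 128 of the 17592 tested genes. GENCODE 29 (GRCh38) places it at chr12:89347232-89353271 on the minus strand. The antisense gene AC024909.2 shares 1875 bases, or 40.5%, of the annotated exons of DUSP6; its symbol has no row in the table, and whether counting used strand is not given in the sources used here, so the DUSP6 count may include antisense reads.

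DUSP5 encodes a nuclear phosphatase for ERK, at chr10:110497838-110511544. It had 18.03, 16.4 and 20.4 CPM with control siRNA and 35.3, 38.3 and 41.5 CPM with SOX2 siRNA. The groups did not overlap, and the lowest SOX2 siRNA library was well above the highest control library. The log2 fold change was 1.07 (SE 0.0794), a 2.10-fold difference. DUSP4, the gene of another nuclear MAP kinase phosphatase, had few reads, at 2.06, 1.24 and 1.83 CPM with control siRNA and 1.59, 1.18 and 1.77 CPM with SOX2 siRNA. Its groups overlapped, its counts were 31 to 68 per library, and its log2 fold change was -0.19 with an SE of 0.228. The 3 phosphatase genes together had 79.8 ± 4.92 CPM with control siRNA and 271 ± 11.6 CPM with SOX2 siRNA (SD, n = 3). DUSP6 made up 73.3% to 76.2% of that sum in control libraries and 84.8% to 86.0% in SOX2 siRNA libraries. These are shares of CPM without correction for gene length, so they are not shares of transcripts.

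Sprouty genes encode membrane-associated inhibitors of receptor tyrosine kinase signalling. SPRY4 (chr5:142310427-142326455) had 42.6, 36.3 and 41.7 CPM with control siRNA and 74.4, 77.0 and 87.7 CPM with SOX2 siRNA. SPRY1 (chr4:123396795-123403760) had 8.27, 8.74 and 8.27 CPM with control siRNA and 17.5, 14.7 and 16.6 CPM with SOX2 siRNA. Neither gene's groups overlapped, and both were close to 2-fold higher, at 1.98-fold (log2 fold change 0.98, SE 0.0749) for SPRY4 and 1.93-fold (0.95, SE 0.0820) for SPRY1. SPRY2 (chr13:80335976-80340951) had 74.4, 75.3 and 77.2 CPM with control siRNA and 98.9, 102 and 103 CPM with SOX2 siRNA. Its groups did not overlap either, but its difference was smaller, at 1.34-fold (log2 fold change 0.42, SE 0.0389). The summed level of the 3 genes was 124 ± 3.497 CPM with control siRNA and 197 ± 8.92 CPM with SOX2 siRNA (SD, n = 3).

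Spred proteins resemble Sproutys, and bring the RAS GTPase-activating protein neurofibromin, encoded by NF1, to the membrane. SPRED1 (chr15:38252326-38357249) had 107, 117 and 125 CPM with control siRNA and 95.8, 101 and 101 CPM with SOX2 siRNA. It was the 1 gene of the 10 that was lower in every SOX2 siRNA library, by a small amount (log2 fold change -0.23, SE 0.0497). SPRED2 (chr2:65310851-65432637) had 71.0, 72.1 and 72.3 CPM with control siRNA and 75.2, 77.7 and 79.4 CPM with SOX2 siRNA. Its groups did not overlap, yet its log2 fold change of 0.11 (SE 0.0403) did not pass the threshold of the test across all genes. It passed at 0.12 (SE 0.0429) when SOX2 siRNA replicate 1 was left out. The 2 Spred genes together stood at 188 ± 9.47 and 177 ± 4.92 CPM (SD, n = 3).

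The PEA3 group genes differed from each other. ETV5 (chr3:186046308-186110318) had 48.8, 43.4 and 45.1 CPM with control siRNA and 64.3, 65.4 and 64.9 CPM with SOX2 siRNA. All 3 SOX2 siRNA libraries were above the control libraries and close together, with a log2 fold change of 0.50 (SE 0.0480). ETV4 (chr17:43527844-43579620) had 32.2, 27.5 and 31.7 CPM with control siRNA and 29.1, 29.9 and 31.5 CPM with SOX2 siRNA. Its SOX2 siRNA libraries lay inside the control range, and its log2 fold change was -0.02 (SE 0.0620), moving between -0.08 and 0.02 as single libraries were left out. ETV5 shares 164 exon bases with DGKG on the same strand, and ETV4 shares 68 with DHX8 on the opposite strand, which are 2.83% and 1.89% of their exons.

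**Figure D2:**
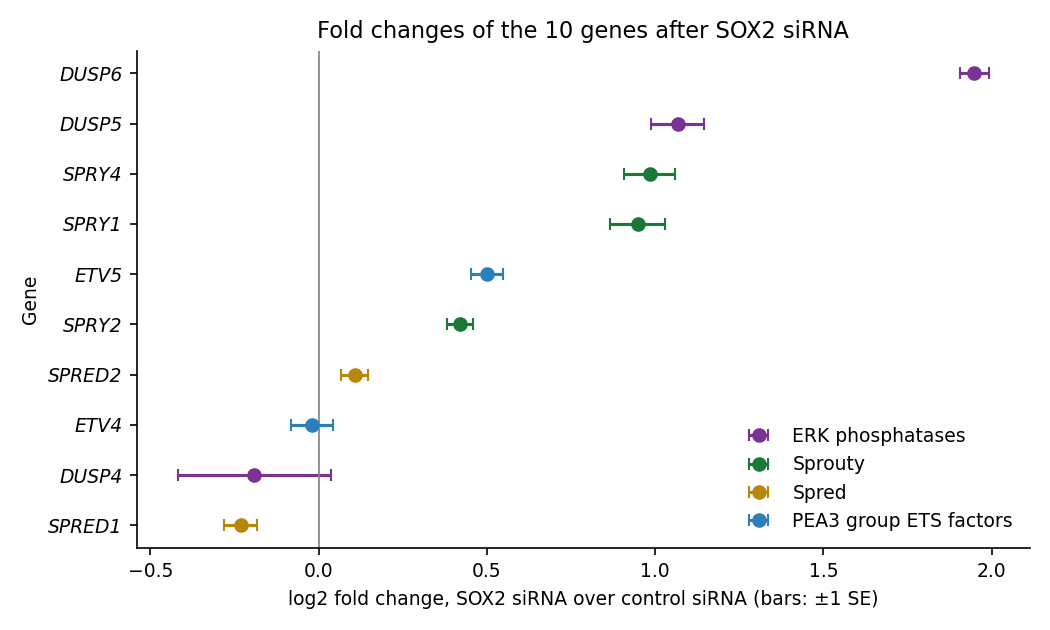
Log2 fold change of each gene, SOX2 siRNA over control siRNA, with bars of 1 SE, coloured by family. DUSP6 stands apart at 1.95, DUSP5, SPRY4 and SPRY1 lie near 1, ETV5 and SPRY2 near 0.5, and SPRED2, ETV4, DUSP4 and SPRED1 near 0 or below.

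Summed over all 10 genes, the level was 469 ± 15.1 CPM with control siRNA and 739.9 ± 25.8 CPM with SOX2 siRNA (SD, n = 3). DUSP6 made up 63.2% of that difference. Its share of the sum was 12.4% to 13.2% in control libraries and 30.9% to 31.5% in SOX2 siRNA libraries. The sums and shares are of CPM without correction for gene length, so long genes weigh more in them. The coefficient of variation between replicates was lowest for ETV5 in SOX2 siRNA libraries (0.883%) and for SPRED2 in control libraries (0.958%). With 1939 to 2116 and 1807 to 2345 counts, both values lie under counting error and mark no steadier gene. It was highest for DUSP4, at 24.9% in control and 20.3% in SOX2 siRNA libraries. In bulk RNA, a change in the number of cells that express a gene and a change in its RNA per cell cannot be told apart.

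Levels can be compared between genes only per length, here as CPM per kb of annotated exons. In control libraries SPRY2 was the highest at 24.9 ± 0.469, followed by SPRED1 at 14.1 ± 1.07, SPRED2 at 13.9 ± 0.133 and DUSP6 at 12.9 ± 0.616 CPM per kb (SD, n = 3). ETV4, ETV5, DUSP5 and SPRY4 followed at 8.46 ± 0.714, 7.89 ± 0.478, 6.99 ± 0.770 and 6.12 ± 0.515 CPM per kb, and each overlapped its neighbour in that order. SPRY1 was at 2.13 ± 0.0688 and DUSP4 at 0.236 ± 0.0586 CPM per kb, separated from the genes above them. SPRED1 overlapped both SPRED2 and DUSP6. In SOX2 siRNA libraries DUSP6 came first at 49.9 ± 1.87 CPM per kb, above SPRY2 at 33.3 ± 0.686, while SPRED2 and DUSP5, and SPRY4 and SPRED1, overlapped. With the longest coding transcript as the length, SPRY2 still led in control at 27.9 CPM per kb. SPRED2 at 17.5 CPM per kb then came above SPRED1 at 14.97, which overlapped DUSP6 at 13.6, and SPRY4 at 8.14 came above DUSP5 at 7.15, these also overlapping.

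**Figure D3:**
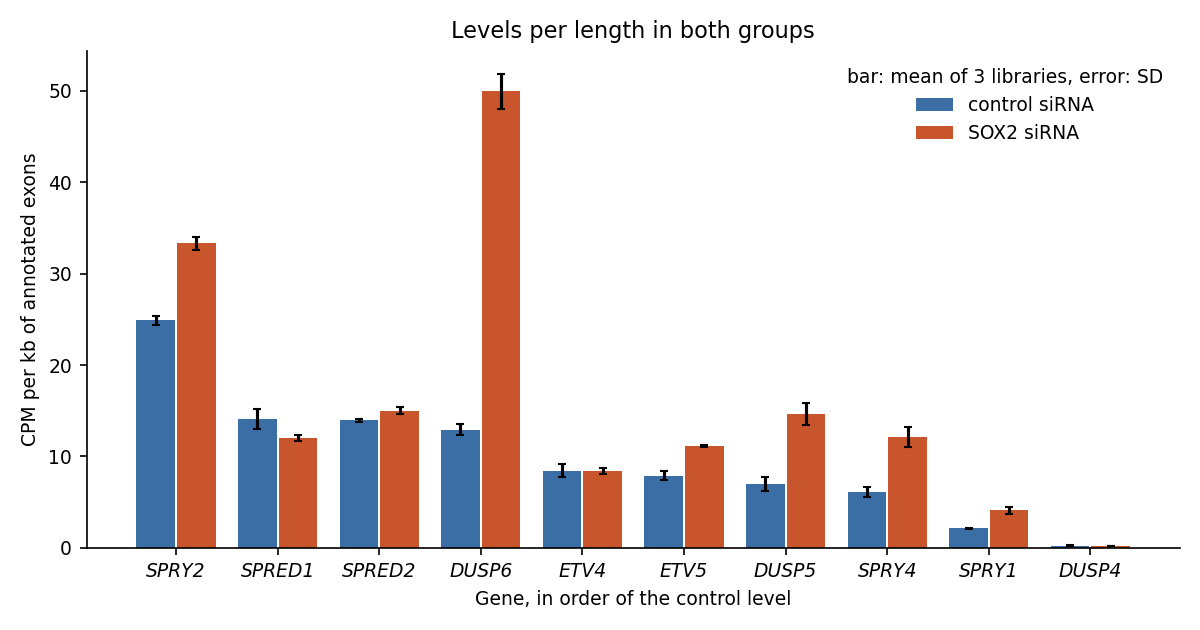
Level per kb of annotated exons for each gene, as means of 3 libraries with SD, in order of the control level. SPRY2 leads in control at 24.9 CPM per kb, and DUSP6 leads in SOX2 siRNA libraries at 49.9 CPM per kb.

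Early response transcripts often carry the destabilising pentamer ATTTA in their 3′ UTR, so its density was counted in the longest coding transcripts. SPRED1 had the most of the 10 genes, 24 copies in 5585 bases or 4.30 per kb, and SPRY1 followed with 3.31 per kb. DUSP6 had 1 copy in 2022 bases, and DUSP5 and ETV4 had 0. The median was 1.80 per kb over the 10 genes and 1.66 per kb over 13138 tested genes with a 3′ UTR. By density DUSP6 was at the 29.5 percentile of tested genes, and DUSP5 and ETV4, without a copy, were both at 27.1. DUSP4 was at 47.3, ETV5 at 51.1, SPRED2 at 54.1 and SPRY4 at 58.2. SPRY2 was at 66.0, SPRY1 at 77.4 and SPRED1 at 87.3. Any link between density and the fold changes was not tested.

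Profiles over the 6 libraries were compared by the distance between centred log2 CPM values, keeping genes whose average log2 CPM reached 2. The 3 nearest to DUSP6 were PDGFRB, KIF26B and H19, at distances of 0.103, 0.104 and 0.157. PDGFRB, a receptor tyrosine kinase gene, went from 28.6 to 106 CPM in the means, and KIF26B, a kinesin family gene, from 26.1 to 103 CPM. The 3 nearest to DUSP5 were EOGT, HEY1 and GDF10, at 0.0919, 0.161 and 0.169. These distances mostly reflect the same step between the groups over 6 libraries.

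The other genes of the pathway were examined in 11 lists, of which 103 of 123 genes were tested. By edgeR's test 57 of the 103 had an adjusted p under 0.05, or 55.3% against 28.2% of all tested genes; 32 were higher and 25 lower, and the median log2 fold change of the 103 was 0.02. By list the share called ran from 33.3% to 80%. The genes acting near the receptors and the other MAP kinase phosphatases were both at 33.3%, close to the share over all genes. The 5 tested receptor genes were at 80%. The lists were chosen with earlier results of these data known. Genes of like counts were not compared, so no excess is read from these shares. The lists are small, and each count that follows is to be read against 14.8% higher and 13.4% lower over all tested genes. The lists did not share a direction, and neighbouring steps of the pathway held genes that rose beside genes that fell.

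**Figure D4:**
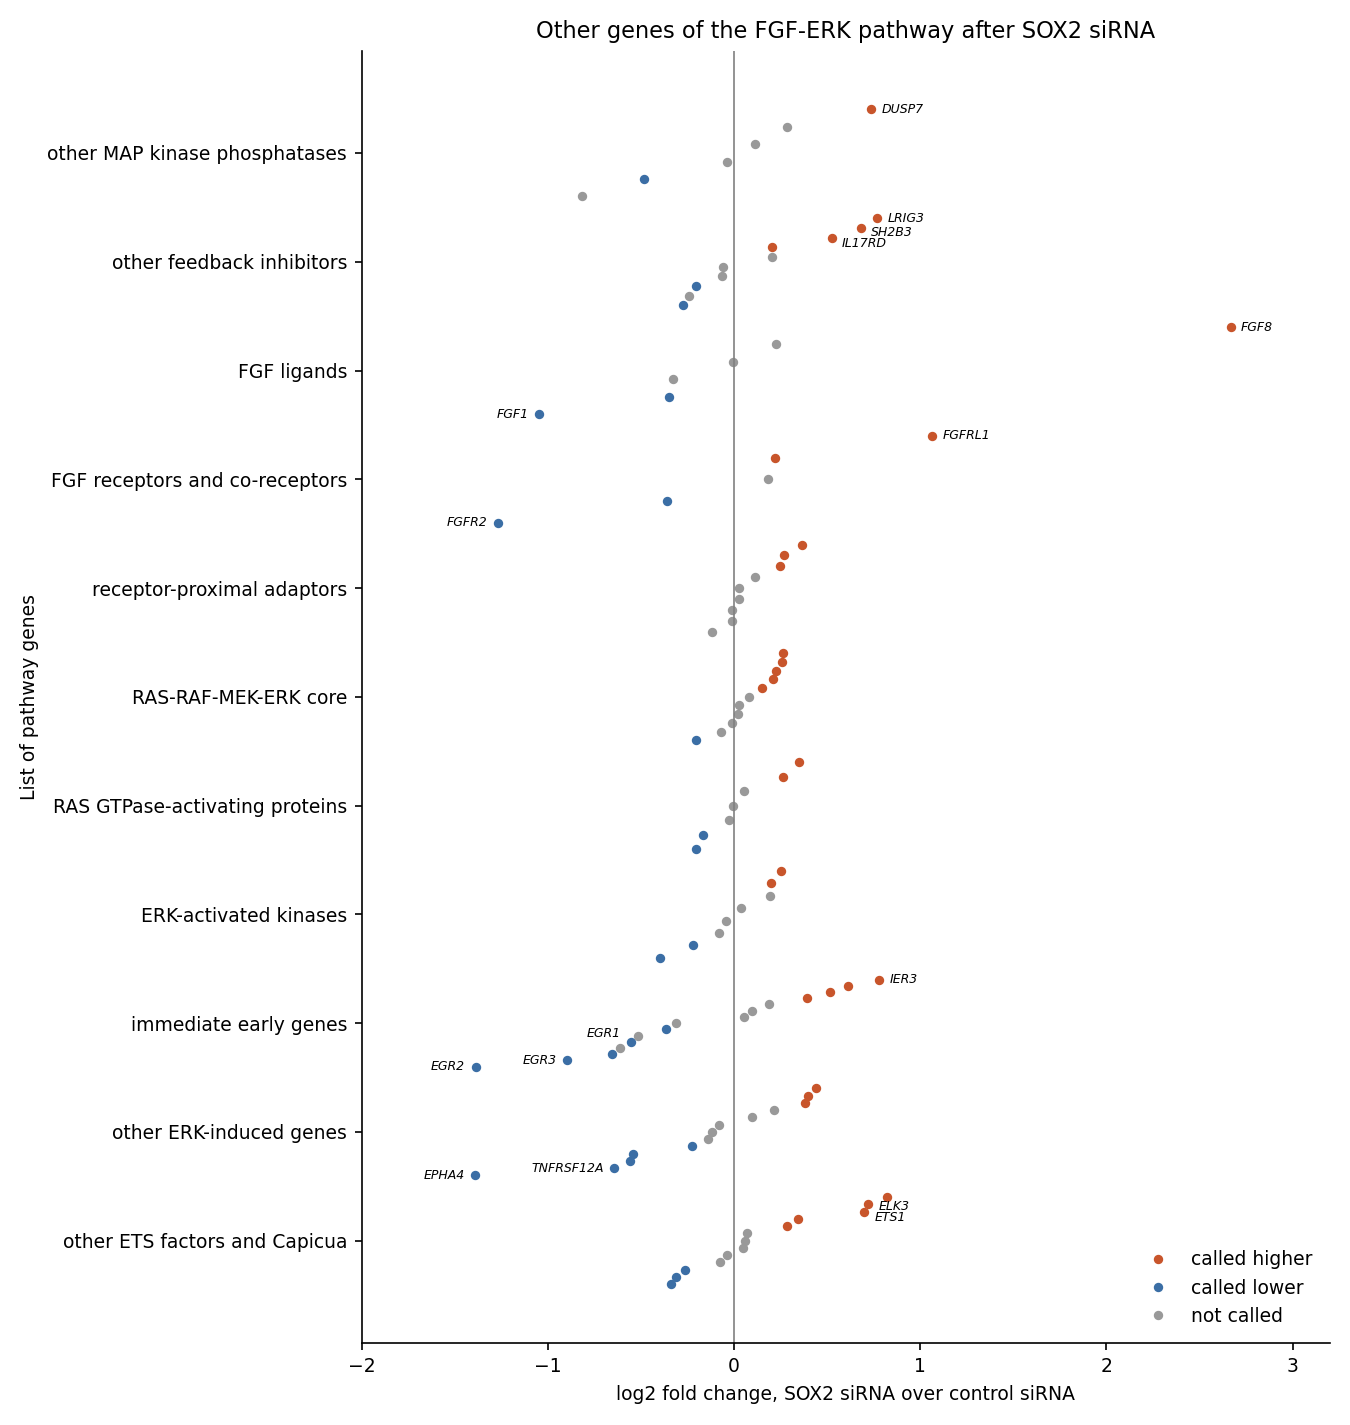
Log2 fold change of every tested gene in the 11 lists of other pathway genes, SOX2 siRNA over control siRNA; colour gives the call at an adjusted p under 0.05, height within a list has no meaning, and genes named in the text with a change of at least 0.5 are labelled. FGF8 at 2.67 and FGFRL1 at 1.06 are the highest, and EPHA4, EGR2 and FGFR2 at -1.39, -1.39 and -1.27 the lowest. FGF8 passed the filter on low counts only through its SOX2 siRNA libraries.

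Among FGF ligands 6 of 18 were tested, with 1 higher, 2 lower and 3 not called. FGF8, a ligand of gastrulation and brain patterning, rose from 17, 10 and 8 counts in control libraries to 73, 80 and 84 counts in SOX2 siRNA libraries. That is 0.397 ± 0.119 against 2.57 ± 0.213 CPM (SD, n = 3), so it remained a rare transcript, with a log2 fold change of 2.67 (SE 0.242). Control replicate 3, at 8 counts, was under the minimum count of 10. FGF8 therefore passed the filter only through the SOX2 siRNA libraries, where it was high, and its call is a description only. FGF2, the tested ligand with the highest counts, fell from 73.3, 77.4 and 79.7 to 58.5, 57.3 and 64.9 CPM, a log2 fold change of -0.35 with an SE of 0.0509 and an edgeR adjusted p = 5.37e-05. FGF1 fell from 6.44 ± 0.225 to 3.12 ± 0.139 CPM (SD, n = 3), a log2 fold change of -1.05 (edgeR adjusted p = 1.96e-06). FGF2 shares 804 exon bases with NUDT6 on the opposite strand, 11.9% of its exons.

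Of 7 receptor and co-receptor genes, 5 were tested, with 2 higher, 2 lower and 1 not called. FGFR2 fell from 89.8, 99.0 and 87.1 CPM to 38.7, 39.9 and 35.9 CPM, a log2 fold change of -1.27 with an SE of 0.0545 and an edgeR adjusted p = 2.51e-11. FGFR1, the receptor transcript with the highest counts, fell from 438 ± 10.9 to 341 ± 18.9 CPM (SD, n = 3), a log2 fold change of -0.36 (edgeR adjusted p = 2.30e-06). FGFRL1, a receptor without a kinase domain, rose from 5.13 ± 0.777 to 10.8 ± 1.87 CPM (SD, n = 3), a log2 fold change of 1.06 (edgeR adjusted p = 8.71e-05). FGFR4 rose by 0.22 on the log2 scale (edgeR adjusted p = 0.0249). That call was lost when control replicate 2 or 3 or SOX2 siRNA replicate 1 or 3 was left out, with log2 fold changes of 0.18, 0.23, 0.19 and 0.19 and edgeR adjusted p of 0.107, 0.0627, 0.0783 and 0.0898.

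The kinase chain itself changed by small amounts. Of 9 genes listed as acting near the receptors, 3 were higher and 6 were not called, 33.3% against the 28.2% called over all genes. The higher ones, SOS2, SHC1 and PLCG1, had log2 fold changes of 0.36, 0.27 and 0.25. Of 11 tested genes of the RAS-RAF-MEK-ERK core, 5 were higher, 1 lower and 5 not called. NRAS, ARAF and the scaffold gene KSR1 had log2 fold changes of 0.26, 0.27 and 0.23, and MAP2K1, which encodes a MEK kinase, of -0.20. No tested core gene went beyond 0.27 in either direction.

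Genes that act against RAS or downstream of ERK moved both ways. Of 7 tested genes of RAS GTPase-activating proteins, 2 were higher and 2 lower: RASA3 and DAB2IP had log2 fold changes of 0.35 and 0.26, RASAL2 and RASA2 of -0.20 and -0.17. RASA2 was not called without control replicate 2 (-0.14, edgeR adjusted p = 0.0514). NF1, the partner of the Spred proteins and named after its values were seen, was not called at 280 and 275 CPM in the group means. Of 8 genes of kinases activated by ERK, 2 were higher and 2 lower: RPS6KA3 and RPS6KA4 had log2 fold changes of 0.20 and 0.25, RPS6KA5 and MKNK1 of -0.40 and -0.22. RPS6KA4 was not called without SOX2 siRNA replicate 2 (0.23, edgeR adjusted p = 0.0577).

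A list of 10 other feedback inhibitors held 4 genes that were higher, 2 lower and 4 not called. It included the remaining Sprouty and Spred genes, named after their values were seen, and neither was called. SPRY3 had 12.8, 12.9 and 10.3 CPM with control siRNA against 9.51, 11.3 and 9.51 CPM with SOX2 siRNA, overlapping groups with a log2 fold change of -0.24 (edgeR adjusted p = 0.0823). SPRED3 had a log2 fold change of 0.20 (edgeR adjusted p = 0.293). IL17RD, encoding the FGF receptor antagonist Sef, rose from 176, 184 and 178 CPM to 255, 258 and 260 CPM, a log2 fold change of 0.52 with an SE of 0.0343 and an edgeR adjusted p = 3.00e-09. LRIG3 and SH2B3, encoding a membrane protein related to LRIG1 and a signalling adaptor, rose from 15.6 ± 0.401 to 26.5 ± 1.49 CPM and from 32.0 ± 2.09 to 51.3 ± 1.48 CPM (SD, n = 3). LRIG1, a negative regulator of ErbB receptors, fell by 0.28 on the log2 scale (edgeR adjusted p = 1.62e-05). Of 6 other MAP kinase phosphatase genes tested, 1 was higher, 1 lower and 4 not called, also 33.3%. DUSP7, closely related to DUSP6 and also cytoplasmic, rose from 15.9, 14.8 and 15.05 CPM to 26.4, 24.4 and 25.4 CPM, a log2 fold change of 0.73 with an SE of 0.0617 and an edgeR adjusted p = 7.10e-08. DUSP10, a phosphatase for p38 and JNK, had a log2 fold change of -0.48 (edgeR adjusted p = 0.0106) and was not called without control replicate 3 (-0.41, edgeR adjusted p = 0.0582).

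Immediate early genes, which serum or growth factors induce without new protein synthesis, were divided. Of 15 tested, 4 were higher, 5 lower and 6 not called, with a median log2 fold change of -0.31. EGR1, a zinc finger factor gene and classical ERK target, fell from 117, 104 and 115 CPM to 79.4, 75.1 and 74.7 CPM, a log2 fold change of -0.55 with an SE of 0.0467 and an edgeR adjusted p = 7.63e-08. EGR3 fell from 12.1 ± 0.828 to 6.51 ± 0.474 CPM and EGR2 from 2.99 ± 0.198 to 1.14 ± 0.0941 CPM (SD, n = 3), log2 fold changes of -0.90 and -1.39 (edgeR adjusted p = 6.79e-07 and 1.22e-05). The SOX2 siRNA libraries of these 3 genes were all below the control libraries, opposite in direction to DUSP6, DUSP5, SPRY1, SPRY2 and SPRY4 in the same libraries. IER3 rose from 21.9, 17.9 and 21.1 CPM to 36.4, 33.9 and 34.8 CPM, a log2 fold change of 0.78 with an SE of 0.0674 and an edgeR adjusted p = 1.33e-07. FOS, named after its values were seen, was not called, at 7.87 and 5.54 CPM in the group means. How long after any stimulus these transcripts were sampled is not given in the labels, and the RNA was taken 72 h after the move to suspension.

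Of 13 other ERK-induced genes tested, 3 were higher, 5 lower and 5 not called. EPHA4, an ephrin receptor gene, fell from 52.6, 55.4 and 53.5 CPM to 19.5, 21.0 and 21.1 CPM, a log2 fold change of -1.39 with an SE of 0.0513 and an edgeR adjusted p = 1.28e-12. TNFRSF12A fell from 20.5 ± 1.66 to 13.2 ± 0.953 CPM, while HMGA2, a chromatin protein gene, rose from 477 ± 15.5 to 629 ± 10.8 CPM (SD, n = 3). PHLDA1 rose from 59.3, 59.8 and 65.9 CPM to 85.3, 82.2 and 83.0 CPM, a log2 fold change of 0.44 (edgeR adjusted p = 1.22e-06).

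Of 13 genes of other ETS factors and of Capicua and its partners, 5 were higher, 3 lower and 5 not called. ELK3 and ETS1, both ETS factor genes, rose from 75.7 ± 2.92 to 125 ± 1.69 CPM and from 77.6 ± 2.92 to 126 ± 2.05 CPM (SD, n = 3), log2 fold changes of 0.72 and 0.70 (edgeR adjusted p = 2.92e-10 and 4.42e-10). ELK4 fell by 0.27 on the log2 scale (edgeR adjusted p = 8.40e-04). CIC, which encodes Capicua, rose from 54.1, 49.1 and 49.4 CPM to 65.3, 58.0 and 62.6 CPM, a log2 fold change of 0.28 (edgeR adjusted p = 6.36e-04). ETV1, the PEA3 group gene beside ETV4 and ETV5, was named after its values were seen and had 18.2 ± 2.00 and 23.1 ± 1.15 CPM (SD, n = 3), a log2 fold change of 0.34 (edgeR adjusted p = 0.00223).

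Exons of several genes named here overlap those of another gene, SH2B3, LRIG1, FGFR1, SHC1, PLCG1, MAP2K1, IER3, EGR3, EPHA4, PHLDA1, TNFRSF12A, ELK3 and ELK4 among them, and their counts are uncertain to that extent. For TNFRSF12A the partner is CLDN6, with 40 shared bases on the opposite strand and 3380 to 5179 counts in control against 2650 to 2857 in SOX2 siRNA libraries.

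Markers of other cell states were read in the same libraries. Of 6 mesendoderm markers, EOMES, MIXL1 and CER1 were called higher, TBXT had 0 counts in every library, and the summed level was 9.45 to 10.6 CPM in control and 61.5 to 68.3 CPM in SOX2 siRNA libraries. The 5 neural markers summed to 806 to 827 CPM against 562 to 575 CPM, nearly all of it NES, which fell from 780.5 to 517 CPM in the means. TUBB3 rose from 28.9 to 48.5 CPM, PAX6 was not called at 4.63 and 4.58 CPM, and SOX1 had 0 counts. The 4 definitive endoderm markers summed to at most 4.11 CPM and had no call, and the 4 blood markers summed to at most 0.830 CPM, with HBB at 0. All 4 endothelial markers were lower, with sums of 112 to 116 and 83.3 to 86.7 CPM, and of 4 trophoblast markers 1 was higher and 1 lower, with sums of 14.3 to 15.9 and 9.37 to 10.3 CPM and CGA at 0. The 4 fibroblast markers summed to 273 to 321 and 359 to 406 CPM, with COL1A1 the 1 called. The part of the called markers in the differences of DUSP6, DUSP5, SPRY1, SPRY2 and SPRY4 was not tested.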

How the data were processed

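The authors deposited unnormalised counts by gene symbol, as whole numbers with 1 column for each library. The submitters' processing notes name bcl2fastq 2.20.0, STAR 2.7.3a, Salmon 0.14.1, DESeq2 1.28.1 and GRCh38.p13, without roles; the counting step, any rounding, the use of strand and the annotation are not given in the sources used here. Trizol extraction and the KAPA mRNA HyperPrep kit are named per the labels' protocols. Columns were matched to libraries by each library's description and groups taken from the titles.

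R 4.3.3 and edgeR 4.0.16 were used: filterByExpr with a minimum count of 10, TMM scaling, and the quasi-likelihood F-test (robust) on group over all 17592 tested genes, with Benjamini-Hochberg adjustment and a threshold of 0.05. A gene past it is said to be called. The procedure was tested on simulated data. Standard errors are the log2 fold change over the square root of F. A count of 3 equals 0.0909 to 0.120 CPM and covers counting error only. Distances between profiles used log2 CPM with a prior count of 2.

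The members and lists were chosen with earlier results of these data known, and the motifs after the sequences had been seen. Named are all 10 members, SOX2, in each list the called genes of lowest p (up to 4), and the 3 nearest profiles of members with an absolute log2 fold change of at least 1. Exon lengths and overlaps came from GENCODE 29, matched by symbol (all 10 members; 96.0% of tested genes), and promoter windows from RefSeq. Alternatives were other scalings, filters, DESeq2 1.42.0, limma-voom (limma 3.58.1), robust=FALSE, a replicate block and each library left out.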

Additional observations from a re-analysis of the deposited data

How the results depend on the processing

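Under 15 alternatives 7 or 8 of the 10 genes were called, 6 or 7 of them higher and always 1 lower; the eighth was SPRED2, with the replicate block (log2 fold change 0.11) and without SOX2 siRNA replicate 1 (0.12). ETV4 changed sign when single libraries were left out, with log2 fold changes from -0.0841 to 0.0236. No other gene of the 10 changed sign or call. DUSP6 ranged from 1.91 to 1.97, DUSP5 from 1.001 to 1.15, and DUSP4, limited by its low counts, from -0.37 to -0.03. Of 764 values of 51 named genes, 13 changed sign or call. Over all genes calls ranged from 3760 (without SOX2 siRNA replicate 2) to 5212 (no filter beyond 1 count), and over the other pathway genes from 50 to 63. Upper-quartile scaling moved the median log2 fold change of all genes from -0.00085 to -0.0211. With no filter beyond 1 count the median was -0.0221, there over 33956 genes. Of the pathway genes named, FGFR4 lost its call with DESeq2's Wald test (0.22, adjusted p = 0.0838).

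Deviations from the group means were not shared by replicates of 1 number, with correlations of 0.0868, -0.0377 and -0.0311, so a number may be no more than a name. Correlations between replicates of different numbers ran from -0.12 to 0.155, the highest for control replicate 3 with SOX2 siRNA replicate 2. With the number as a replicate block 5177 genes were called in place of 4964, 8 members in place of 7, and 62 other pathway genes in place of 57.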
